A study of Homo sapiens with 18 samples.

Results

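NR4A1, NR4A2 and NR4A3 are the 3 members of the NR4A group of nuclear receptors, and they were described here among 34287 genes whose transcripts could be matched in HEK293 cells, a line derived from human embryonic kidney. They were chosen by their gene-summed read counts in these libraries, with their basal levels, stimulated levels and folds already known, so these levels and folds are given as a description with no test. The study examined transcription downstream of the β2-adrenergic receptor (β2AR), a Gs-coupled receptor for adrenaline and noradrenaline. It compared wildtype HEK293 cells, cells lacking β-arrestin 1 and 2 (β-arrestin1/2 KO) and cells without the α subunit of the Gs protein (Gαs KO), each in the basal state or after isoproterenol, a β-agonist. With 3 libraries in each of the 6 groups, 18 libraries of polyadenylated RNA were analysed.

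In all 6 groups the cells had been transfected with a plasmid for the β2AR, kept without serum overnight and collected 48 h after transfection, and the stimulated groups received isoproterenol at 1 μM for 1 h. The wildtype basal, β-arrestin1/2 KO basal and Gαs KO basal groups received vehicle. Both knockout lines had been made earlier by CRISPR-Cas9 editing, and whether each is a single clone is not given in the sources used here, so a difference between lines is a difference between these cell populations. The receptor came from transient transfection, which need not reach every cell.

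The NR4A proteins bind DNA as monomers at the NBRE, as homodimers or, for some members, as dimers with the retinoid X receptors. No natural ligand is known to control them in the manner of a hormone receptor. Their activity is therefore set largely by how much of each is made, and the genes belong to the immediate-early class, which is transcribed within minutes of a stimulus without new protein synthesis. Cyclic AMP raised by a Gs-coupled receptor activates protein kinase A, which phosphorylates CREB at the cyclic AMP response element (CRE), and this is the textbook route to NR4A transcription. NR4A1 (NUR77) is known for roles in T cell selection and steroidogenic tissue, NR4A2 (NURR1) for the development of dopamine neurons, and NR4A3 (NOR1) for vascular and muscle cells and as a fusion partner in a sarcoma.

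In the GENCODE 29 annotation of GRCh38, NR4A1 (ENSG00000123358) lies at chr12:52022832-52059507 on the + strand, NR4A2 (ENSG00000153234) at chr2:156324432-156342348 on the - strand and NR4A3 (ENSG00000119508) at chr9:99821855-99866891 on the + strand. All are protein coding. Promoter windows of 250 bases before a RefSeq start (GRCh38.p14) were held for 2 of the members, with 3 windows between them, and NR4A2 had no entry. The NR4A3 window and the window before the start of 1 NR4A1 transcript, NR4A1-206 (ENST00000545748), are shown because the counts below differ by annotated start. Capitals mark TGACG, the core of the CRE, on either strand.
NR4A3, chr9:99821635-99821884, + strand: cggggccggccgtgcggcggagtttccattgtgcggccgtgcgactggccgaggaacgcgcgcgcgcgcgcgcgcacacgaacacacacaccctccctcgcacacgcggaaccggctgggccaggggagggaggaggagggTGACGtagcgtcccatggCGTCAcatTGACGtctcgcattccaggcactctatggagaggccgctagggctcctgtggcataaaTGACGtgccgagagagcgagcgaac
NR4A1-206 start, chr12:52037465-52037714, + strand: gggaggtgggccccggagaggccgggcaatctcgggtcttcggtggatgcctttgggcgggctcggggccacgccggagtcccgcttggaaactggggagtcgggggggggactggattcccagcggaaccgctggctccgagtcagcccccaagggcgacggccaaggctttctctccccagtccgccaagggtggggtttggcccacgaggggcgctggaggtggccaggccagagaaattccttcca

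The NR4A3 window held 4 TGACG matches, beginning 109, 91, 83 and 25 bases before the RefSeq start at 99821885. Of these the match at 91 lay on the opposite strand. The main-start NR4A3 transcripts counted below begin upstream of that RefSeq start, at 99821855. The match at 25 therefore lies inside them, and the other matches lie nearer to their start. Both NR4A1 windows, the one shown and one before the first annotated start, held 0. TGACG was present on either strand in 21.2% of 35116 promoter windows of the same length, and 1.01% held at least 3 matches. The full palindrome TGACGTCA (1.65% of windows), the NBRE AAAGGTCA (1.05%) and the CArG box bound by serum response factor (1.16%) had 0 matches in these 3 windows, and TGACGTCA contains TGACG wherever it occurs. These are matches of letters within the windows only. The promoter of the NR4A1 start that carried most of its counts was not analysed here.

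Library totals ranged from 17908597 to 25019834 estimated counts with a median of 20419459. Wildtype basal replicate 1 stood apart, with a count-weighted transcript GC content of 52.5% against 49.2% to 50.1% in the other 17 libraries. The wildtype folds of the NR4A gene sums and their differences from wildtype basal cells are therefore also given without it. Other wildtype basal means, and the folds and shares of single transcripts and annotated starts, include it. GNAS, the gene of Gαs, had 25207 ± 7249 normalized counts in wildtype basal cells and 1264 ± 96.5 in Gαs KO basal cells (SD, n = 3). ARRB2 had 1892 ± 546 in wildtype basal and 397 ± 48.7 in β-arrestin1/2 KO basal cells, whereas ARRB1 (948 ± 268 and 786 ± 54.9) overlapped between them. These are RNA counts and do not measure protein. The study reported loss of both β-arrestin proteins in this line by Western blot. The 10 markers fixed for HEK293 cells summed to between 33007 and 49103 normalized counts in wildtype and β-arrestin1/2 KO libraries and to between 57309 and 58725 in Gαs KO libraries. The 8 markers of immune, fibroblast, liver and endothelial cells summed to between 427 and 945. Few genes carried these sums. Group means ran from 12697 to 28421 for VIM but from 2.26 to 18.7 for PAX8, both HEK293 markers. Among the 8 others, COL1A1 had group means from 388 to 846.

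NR4A1 was higher after isoproterenol in wildtype and β-arrestin1/2 KO libraries and had overlapping levels in Gαs KO libraries. Its normalized counts (scaled to the mean library by the trimmed mean of M values) were 3886, 2219 and 2976 in the wildtype basal libraries and 10768, 10317 and 11267 after isoproterenol. The β-arrestin1/2 KO libraries held 889, 777 and 962 in the basal state and 9907, 8058 and 9202 after isoproterenol. Every stimulated library of these lines stood above every basal library of its line. The basal Gαs KO libraries held 334, 323 and 343 and the stimulated ones 406, 346 and 340, with overlapping groups.

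The mean NR4A1 count was 3.56 times the basal mean in wildtype cells, 10.3 times in the β-arrestin1/2 KO line and 1.09 times in the Gαs KO line. The fitted log2 folds were 1.83 (SE 0.15), 3.37 (SE 0.16) and 0.13 (SE 0.16), from edgeR with all 18 libraries in a single fit. Without wildtype basal replicate 1, the highest of the wildtype basal values, the wildtype log2 fold was 2.05 (SE 0.11). In bulk libraries, a lower level in each cell and fewer cells that carry the RNA cannot be told apart.

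NR4A2 had a low basal level and a much higher one after isoproterenol in the same lines. The wildtype basal libraries held 232, 253 and 298 and the stimulated ones 3149, 2809 and 2997. Basal β-arrestin1/2 KO libraries held 161, 182 and 176 and the stimulated ones 4899, 4154 and 4242, above every wildtype library. In the Gαs KO line the counts were 116, 108 and 109 in the basal state and 93.9, 143 and 119 after isoproterenol, and the stimulated range enclosed the basal one. The folds of the means were 11.4, 25.7 and 1.07 in the wildtype line, the β-arrestin1/2 KO line and the Gαs KO line. On the fitted log2 scale they were 3.52 (SE 0.13), 4.68 (SE 0.14) and 0.10 (SE 0.14), and the wildtype value was 3.44 (SE 0.11) without wildtype basal replicate 1.

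NR4A3 had the fewest counts of the family. Its wildtype basal libraries held 122, 117 and 141 normalized counts and its stimulated ones 749, 565 and 585. The β-arrestin1/2 KO libraries held 45.1, 27.7 and 46.5 in the basal state and 955, 704 and 781 after isoproterenol, again with no overlap. The Gαs KO libraries held 31.7, 38.4 and 16.8 in the basal state and 26.4, 15.7 and 18.2 after isoproterenol, where the groups overlapped and the counting error is large. The folds of the means were 5.00, 20.4 and 0.693 in the wildtype line, the β-arrestin1/2 KO line and the Gαs KO line, and the fitted log2 folds were 2.32 (SE 0.23), 4.37 (SE 0.26) and -0.51 (SE 0.31). Without wildtype basal replicate 1 the wildtype log2 fold was 2.29 (SE 0.24).

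**Figure D1:**
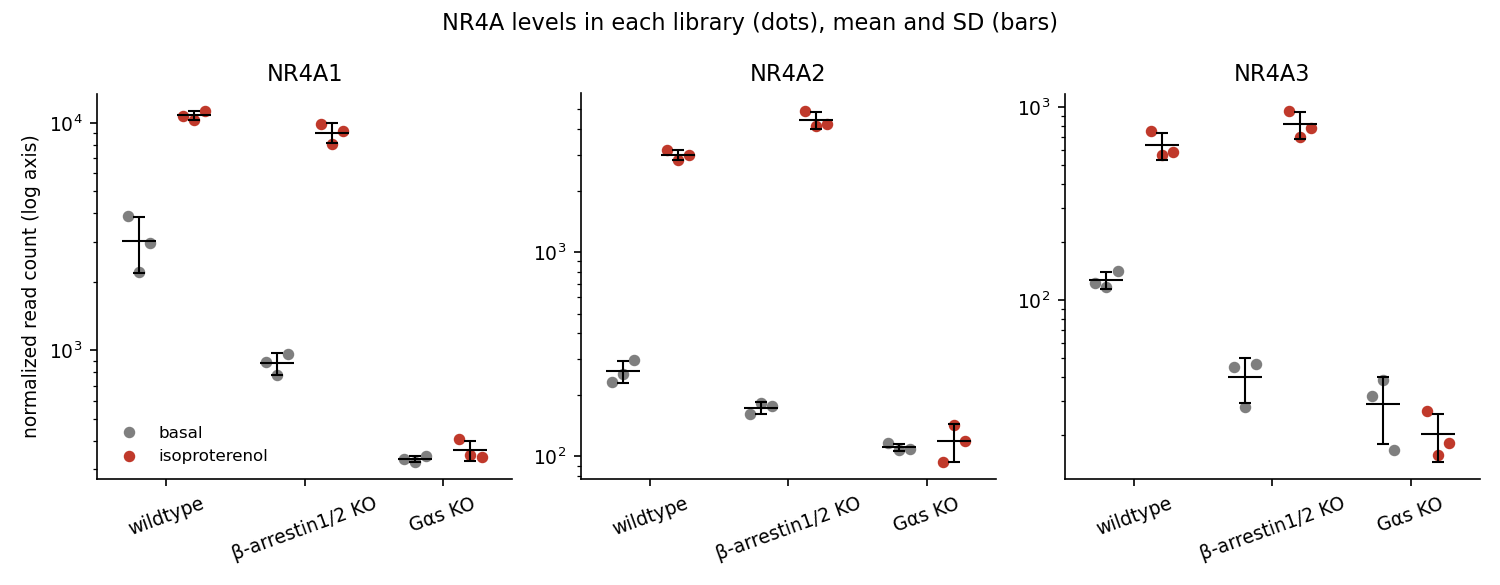
Normalized read counts (log axis) of NR4A1, NR4A2 and NR4A3 in each library (dots), with the mean and SD of the 3 libraries of a group (bars), by cell line and treatment. Stimulated libraries lie above basal ones without overlap in the wildtype and β-arrestin1/2 KO lines and overlap with them in the Gαs KO line.

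Among the 15530 genes that passed the filter on low counts, NR4A2 ranked 39 by log2 fold in wildtype cells and 21 in the β-arrestin1/2 KO line, counted from the highest. NR4A3 ranked 83 and 24, and NR4A1 124 and 33. The ranks take no account of the error of each fold, so a gene with few counts and a noisy fold can rank high. By edgeR 64 genes were called higher in wildtype cells and 148 in the β-arrestin1/2 KO line. All 3 members passed the filter. The order of the members by log2 fold was NR4A2, NR4A3 and NR4A1 in both lines. In the β-arrestin1/2 KO line the values of NR4A2 and NR4A3 differed by less than 2 of the standard errors of NR4A3. In wildtype cells NR4A3 and NR4A1 stood at 2.32 (SE 0.23) and 1.83 (SE 0.15). Without wildtype basal replicate 1 they stood closer, at 2.29 (SE 0.24) and 2.05 (SE 0.11).

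**Figure D2:**
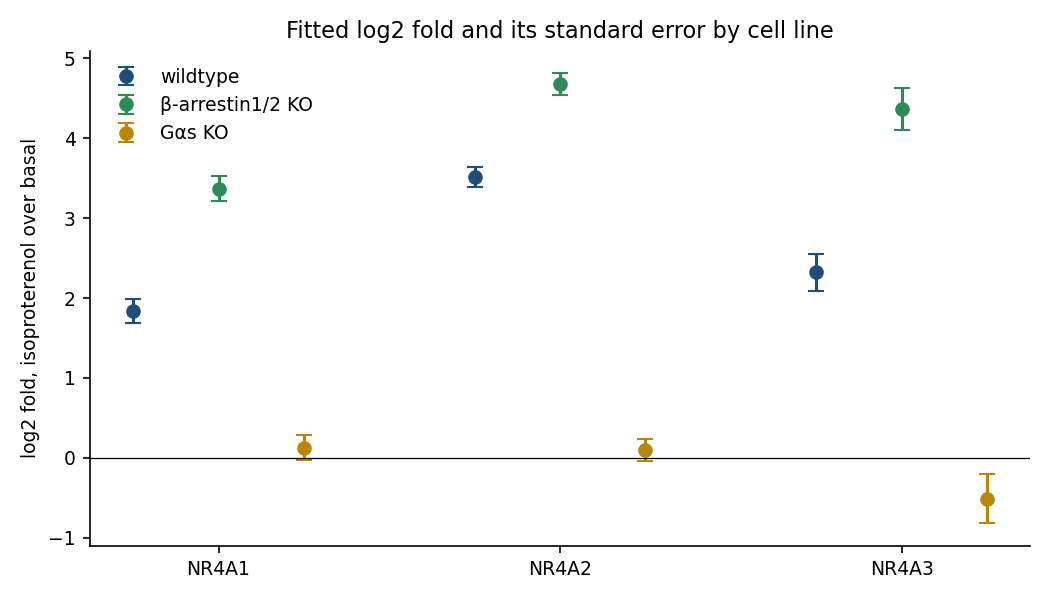
Fitted log2 fold of isoproterenol over basal (points) with its standard error (bars) for NR4A1, NR4A2 and NR4A3 in the wildtype line, the β-arrestin1/2 KO line and the Gαs KO line. The values lie between 1.83 and 3.52 in wildtype cells, between 3.37 and 4.68 in the β-arrestin1/2 KO line and between -0.51 and 0.13 in the Gαs KO line.

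The larger folds of the β-arrestin1/2 KO line came with lower basal levels. In the basal state NR4A1 differed from wildtype cells by -1.79 on the log2 scale (SE 0.15), NR4A2 by -0.59 (SE 0.13) and NR4A3 by -1.68 (SE 0.25). After isoproterenol the log2 differences from wildtype were much smaller, at -0.25 (SE 0.15) for NR4A1, 0.57 (SE 0.11) for NR4A2 and 0.36 (SE 0.21) for NR4A3. The 3 stimulated NR4A3 libraries of the β-arrestin1/2 KO line overlapped those of wildtype cells, while those of NR4A1 lay below and those of NR4A2 above the wildtype libraries. The log2 fold itself exceeded that of wildtype cells by 1.54 (SE 0.21) for NR4A1, 1.16 (SE 0.17) for NR4A2 and 2.05 (SE 0.33) for NR4A3. For NR4A1 the basal difference was larger than that excess and the stimulated one ran against it, for NR4A3 the basal difference was the larger part of it, and for NR4A2 the basal and stimulated differences were about equal. Without wildtype basal replicate 1 the excess was 1.32, 1.24 and 2.08, and the basal difference of NR4A1 was -1.57.

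The Gαs KO line had the lowest mean basal level of all 3 genes. The log2 difference from wildtype basal cells was -3.18 (SE 0.16) for NR4A1, -1.23 (SE 0.13) for NR4A2 and -2.13 (SE 0.26) for NR4A3, and -2.96, -1.32 and -2.17 without wildtype basal replicate 1. After isoproterenol the same difference reached -4.89 (SE 0.17), -4.65 (SE 0.14) and -4.97 (SE 0.28). The stimulated Gαs KO libraries therefore stood at similar log2 distances below wildtype for all members, although the basal distances differed. Basal NR4A3 in the Gαs KO line (16.8 to 38.4) overlapped basal NR4A3 in the β-arrestin1/2 KO line (27.7 to 46.5).

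Ordered by mean normalized count, NR4A1 ran from wildtype iso (10784 ± 476) through β-arrestin1/2 KO iso (9056 ± 933), wildtype basal (3027 ± 835), β-arrestin1/2 KO basal (876 ± 93.1) and Gαs KO iso (364 ± 36.4) to Gαs KO basal (334 ± 10.1). Only the last pair of neighbours overlapped. NR4A2 ran from β-arrestin1/2 KO iso (4432 ± 407) through wildtype iso (2985 ± 170), wildtype basal (261 ± 33.4), β-arrestin1/2 KO basal (172.7 ± 11.02) and Gαs KO iso (119 ± 24.5) to Gαs KO basal (111 ± 4.34), again with overlap in the last pair alone. NR4A3 ran from β-arrestin1/2 KO iso (813 ± 128) through wildtype iso (633 ± 101), wildtype basal (127 ± 12.7), β-arrestin1/2 KO basal (39.8 ± 10.5) and Gαs KO basal (28.97 ± 11.10) to Gαs KO iso (20.1 ± 5.63). Here the first pair and the last 2 pairs of neighbours overlapped. All errors are SDs of 3 libraries.

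Divided by transcript length, the members can be set against each other. NR4A1 was the most abundant in every group, at 126 ± 22.7 TPM in wildtype basal cells against 8.57 ± 1.55 for NR4A2 and 2.97 ± 0.33 for NR4A3. The summed level of the family was 138 ± 22.6 in wildtype basal cells and 576 ± 14.5 after isoproterenol. In the β-arrestin1/2 KO line it was 49.4 ± 6.26 in the basal state and 568 ± 55.9 after isoproterenol, so the stimulated sums of the 2 responding lines differed by less than the SD of the latter. The sum was 20.2 ± 0.69 and 21.8 ± 1.47 in the Gαs KO line.

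After isoproterenol NR4A2 made up more of the family, and NR4A1 less, in the responding lines. NR4A2 formed 6.33% ± 1.36 of the family level in wildtype basal cells and 16.8% ± 0.91 after isoproterenol, and 12.1% ± 1.92 and 25.8% ± 1.35 in the β-arrestin1/2 KO line. The share of NR4A1 went from 91.5% ± 1.82 to 80.4% ± 1.39 in wildtype cells and from 85.8% ± 1.61 to 70.5% ± 1.34 in the β-arrestin1/2 KO line. In the Gαs KO line NR4A2 formed 19.4% ± 0.96 in the basal state and 19.1% ± 4.61 after isoproterenol. NR4A3 stayed between 2.10% and 3.79% in every group mean.

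**Figure D3:**
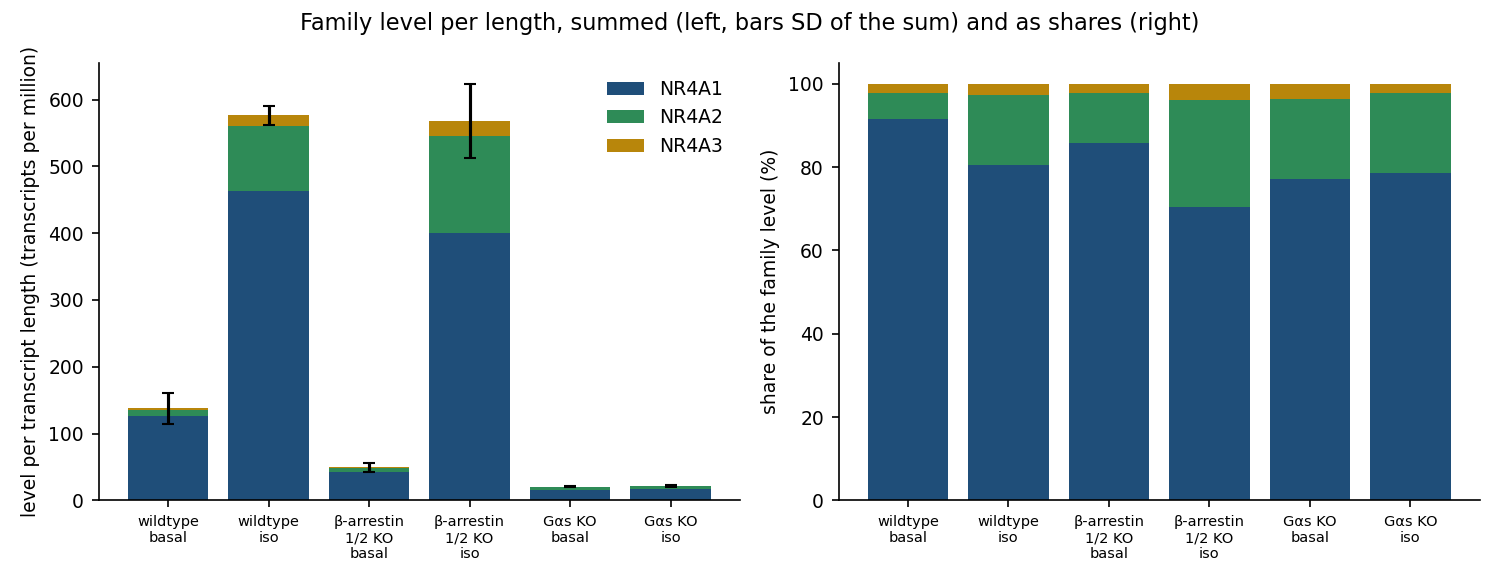
Left, mean level per transcript length (TPM, stacked bars from 0) of NR4A1, NR4A2 and NR4A3 in the 6 groups, with the SD of their sum over 3 libraries. Right, the same as percent of the family level. The sum reaches 576 and 568 in stimulated wildtype and β-arrestin1/2 KO libraries and stays at 20.2 and 21.8 in the Gαs KO line, and NR4A2 takes its largest share, 25.8%, in stimulated β-arrestin1/2 KO libraries.

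The counts were estimated per transcript, so the transcripts behind each gene sum could be followed. Transcript use is among the values by which the genes were chosen, so it is described with no test. Of 22 annotated NR4A1 transcripts 18 had a count in at least 1 library and 5 in every library. NR4A1-204 (ENST00000394825) held 68.3% of all NR4A1 counts. Of 10 NR4A2 transcripts 9 had a count, and NR4A2-201 (ENST00000339562) held 79.6%. All 4 NR4A3 transcripts had a count, and ENST00000395097 held 90.4%. The estimator divides reads among isoforms that share most of their sequence, so counts of near-identical isoforms are uncertain.

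The share of the gene sum held by the leading transcript differed by gene and line. The NR4A2-201 share was 63.8% ± 17.9 in wildtype basal and 78.3% ± 2.96 in wildtype iso libraries, 65.8% ± 1.89 and 82.7% ± 2.29 in the β-arrestin1/2 KO line, and 62.8% ± 7.56 and 59.8% ± 5.19 in the Gαs KO line. Basal and stimulated libraries did not overlap in the wildtype or β-arrestin1/2 KO libraries and overlapped in those of the Gαs KO line. The NR4A1-204 share was 59.5% ± 7.31 and 74.0% ± 3.80 in wildtype, 60.8% ± 12.2 and 65.9% ± 7.77 in β-arrestin1/2 KO and 51.4% ± 1.55 and 43.4% ± 17.9 in Gαs KO libraries, basal before stimulated. The leading transcripts were picked by counts pooled over all libraries, in which the stimulated wildtype and β-arrestin1/2 KO libraries weigh most.

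Summed by annotated start, transcripts of the same gene differed in their response. This grouping was chosen after the values were seen and is likewise a description. The NR4A2 transcripts from the main start, among them NR4A2-201, went from 182 ± 56.1 normalized counts in wildtype basal to 2590 ± 151 in wildtype iso libraries, 14.2-fold higher. In the β-arrestin1/2 KO line they went from 116 ± 11.7 to 4027 ± 433, 34.7-fold, and in the Gαs KO line they held 75.3 ± 11.2 and 70.8 ± 11.6. The 5 NR4A2 transcripts that begin inside the gene went from 37.3 ± 15.2 to 342 ± 16.9 in wildtype cells (9.17-fold). In the β-arrestin1/2 KO line these 5 went from 13.3 ± 10.6 to 366 ± 36.1 (27.5-fold), and in the Gαs KO line they overlapped. NR4A2-204 (ENST00000409572), the only annotated transcript from the start at 156342348, the upstream end of the gene, held 41.5 ± 28.8 and 52.1 ± 18.8 in wildtype, 43.5 ± 11.3 and 38.3 ± 15.7 in β-arrestin1/2 KO and 25.1 ± 13.1 and 27.6 ± 15.1 in the Gαs KO line. Its basal and stimulated libraries overlapped in every line, at 1.26, 0.882 and 1.10 times the basal mean. The share of NR4A2 counts it held went from 16.9% ± 13.2 to 1.75% ± 0.62 in wildtype cells and from 25.5% ± 7.81 to 0.862% ± 0.35 in the β-arrestin1/2 KO line, and was 22.3% ± 10.9 and 22.7% ± 11.6 in the Gαs KO line.

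NR4A1 showed a graded form of the same pattern. The count from its downstream start, that of NR4A1-204, went from 2105 ± 866 to 9261 ± 572 normalized counts in wildtype cells (4.40-fold) and from 609 ± 139 to 7267 ± 1777 in the β-arrestin1/2 KO line (11.9-fold), and held 183 ± 15.5 and 177 ± 52.4 in the Gαs KO line. The 3 transcripts of the second start group, which begin between 52037177 and 52037715, went from 256 ± 67.0 to 524 ± 75.3 in wildtype cells (2.04-fold) and from 124 ± 33.6 to 274 ± 44.2 in the β-arrestin1/2 KO line (2.21-fold), without overlap in either line. In the Gαs KO line they held 122 ± 11.7 and 102 ± 39.8 and overlapped. Most of these counts lay in NR4A1-207 (ENST00000546842), which begins upstream of the window printed above and held 195 ± 52.0 and 391 ± 45.0 in wildtype, 69.3 ± 18.6 and 167 ± 32.7 in β-arrestin1/2 KO and 38.4 ± 11.4 and 40.8 ± 13.5 in Gαs KO libraries. NR4A1-206, whose own window holds no TGACG match, held 54.1 ± 48.6 and 131 ± 32.4, 51.0 ± 19.5 and 107 ± 41.9, and 79.1 ± 13.1 and 57.7 ± 28.4 in the same order. In basal libraries the second start group thus stood at nearly the same count in both knockout lines, while the downstream start stood at 609 in β-arrestin1/2 KO and 183 in the Gαs KO line. The second start group held 36.6% ± 3.64 of NR4A1 counts in Gαs KO basal libraries, 14.5% ± 5.59 in β-arrestin1/2 KO basal and 8.73% ± 2.39 in wildtype basal libraries.

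The 6 annotated NR4A1 transcripts that begin beyond the downstream start, inside the gene, rose most in fold. Most of their counts lay in NR4A1-215 (ENST00000550557), a retained-intron transcript. They went from 68.4 ± 22.1 to 582 ± 116 in wildtype cells (8.51-fold) and from 26.6 ± 2.58 to 566 ± 72.8 in the β-arrestin1/2 KO line (21.3-fold), without overlap. In the Gαs KO line they held 9.87 ± 3.46 and 11.9 ± 7.15 and overlapped. The other NR4A1 transcripts were less regular. The 4 transcripts from another cluster of starts, upstream of the downstream start, held 943 ± 953 normalized counts in stimulated β-arrestin1/2 KO libraries, with 2042 in replicate 2 against 348 and 439 in the others, and 84.7 ± 66.5 in basal ones. The cluster held 595 ± 134 in wildtype basal and 405 ± 136 in wildtype iso libraries, which overlapped, and 18.6 ± 5.32 and 73.0 ± 20.3 in the Gαs KO line, which did not. The excess in that 1 library lay in NR4A1-213 (ENST00000550082), which went from 529 ± 145 to 88.6 ± 92.1 in wildtype cells, without overlap and opposite to the gene sum. It was at 0 in the basal Gαs KO libraries and at 62.0 ± 17.7 in the stimulated ones. Without this transcript the cluster went from 65.5 ± 16.5 to 317 ± 45.4 in wildtype cells and from 36.6 ± 17.2 to 374 ± 56.8 in the β-arrestin1/2 KO line. The first start, at 52022832, held a mean of at most 32.2 normalized counts in any group. For NR4A3 the transcripts from the main start held all counts in wildtype libraries, with 127 ± 12.7 in the basal and 633 ± 101 in the stimulated group.

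**Figure D4:**
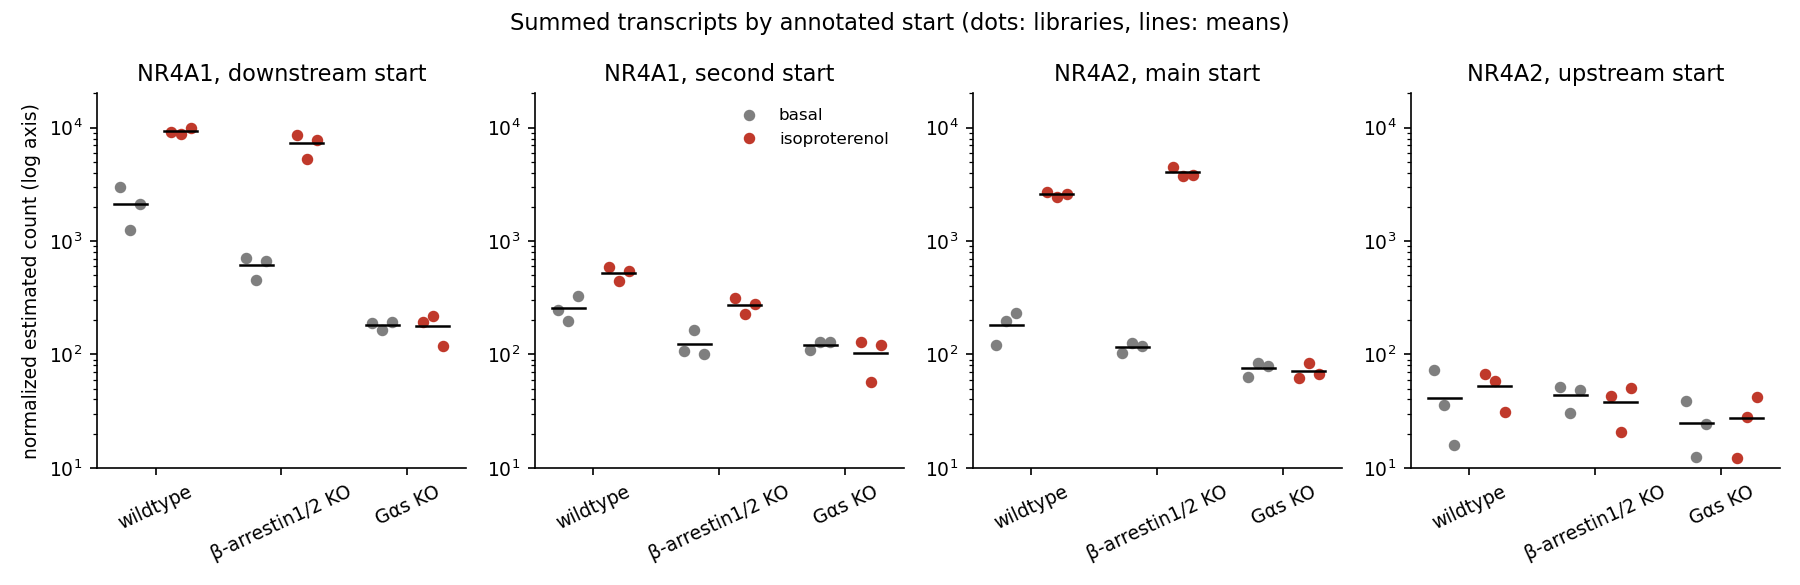
Normalized estimated counts (log axis) of transcripts summed by annotated start, for the downstream start and second start group of NR4A1 and the main and upstream starts of NR4A2, in each library (dots) with group means (lines). The upstream start of NR4A2 overlaps between basal and stimulated libraries in every line, whereas its main start is 14.2-fold higher after isoproterenol in wildtype and 34.7-fold higher in the β-arrestin1/2 KO line.

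No other nuclear receptor gene passed the test for a response in the fit used throughout. Of 45 other nuclear receptors 34 passed the filter, and with edgeR's quasi-likelihood test (adjusted p under 0.05 over all 15530 genes) 0 were called in any of the lines. At an unadjusted p under 0.05 the counts were 2, 5 and 0, beside 1629, 1288 and 164 of all genes, in the wildtype line, the β-arrestin1/2 KO line and the Gαs KO line respectively, and DESeq2 called 0 in each line. Over all genes tested, 0.412% were called higher and 0.0515% lower in wildtype cells, 0.953% higher and 0.174% lower in the β-arrestin1/2 KO line, and 0% in either direction in the Gαs KO line. At such shares, 0 calls among 34 genes does not set apart the other nuclear receptors. Their log2 folds ran from -0.52 for the progesterone receptor gene PGR to 0.63 for the xenobiotic receptor gene NR1I3 in wildtype cells. For the β-arrestin1/2 KO line they ran from -1.08 for HNF4G to 0.48 for RARB, and in the Gαs KO line from -0.27 for RARB to 0.50 for ESRRG. The medians were 0.0087, -0.10 and -0.03, beside -0.0021, -0.0082 and -0.0011 for all genes. Without wildtype basal replicate 1, NR1H2, the oxysterol receptor LXRβ, was called higher in wildtype cells (log2 fold 0.47, adjusted p = 0.0089 by edgeR), as it was with GC and length offsets over all libraries (0.43, adjusted p = 0.020 by edgeR). It is named after its value was seen. Over all genes, edgeR called 0 in the Gαs KO line while 164 had an unadjusted p under 0.05, and DESeq2 called 9.

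**Figure D5:**
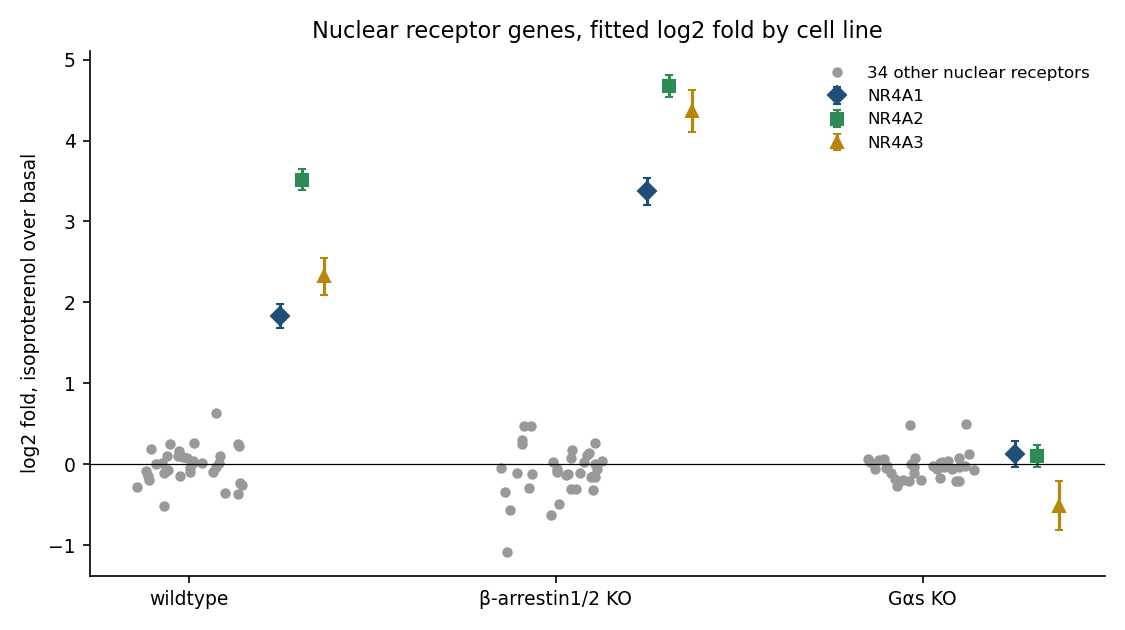
Fitted log2 fold of isoproterenol over basal for 34 other nuclear receptor genes (grey points, spread sideways for legibility) and for NR4A1, NR4A2 and NR4A3 with standard errors, by cell line. The grey points lie between -1.08 and 0.63 in all lines, below every NR4A value of the wildtype and β-arrestin1/2 KO lines.

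The factors with which NR4A proteins work gave no call in the same fit. The list of 22 partners and coregulators included the retinoid X receptors, the NCOA coactivators and the CoREST subunits RCOR1 and KDM1A. Of these 22, 21 passed the filter and 0 were called in any line. Over all 15530 genes edgeR called 72, 175 and 0 in the wildtype line, the β-arrestin1/2 KO line and the Gαs KO line. At such shares, 0 calls among 21 genes does not set the partners apart from other genes. Of the 21 partners, 6, 2 and 0 had an unadjusted p under 0.05 by edgeR in the same order. Over all 15530 genes there were 1629, 1288 and 164. The median log2 folds of the partners were -0.06, -0.06 and -0.0066 in the same order. DESeq2 called 1 of them, in wildtype cells, XPO1 (log2 fold 0.49, adjusted p = 0.0028), the exportin that carries NR4A1 out of the nucleus, and none in the other lines. In wildtype cells edgeR also called XPO1 with upper-quartile scaling (adjusted p = 0.0498), with a minimum of 10 counts in every library (adjusted p = 0.047) and without wildtype basal replicate 1 or 2. XPO1 is named after its value was seen.

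Of 28 genes upstream of NR4A transcription, among them CREB1, the CRTC coactivators, protein kinase A subunits, MEF2 factors and class II histone deacetylases, 26 passed the filter. Over all genes tested, edgeR called 0.412% higher in wildtype cells and 0.953% higher in the β-arrestin1/2 KO line. At an unadjusted p under 0.05 by edgeR the list had 5 and 3 in these lines, beside 1629 and 1288 of all 15530 genes. With edgeR, SIK1 rose in wildtype cells, and SIK1 and CREM rose in the β-arrestin1/2 KO line. In the Gαs KO line edgeR and DESeq2 each called 0, and 0 had an unadjusted p under 0.05. SIK1, a salt-inducible kinase that restrains the CRTC coactivators, held 178, 249 and 252 normalized counts in wildtype basal and 1225, 1193 and 1290 in wildtype iso libraries. It held 306, 228 and 303 in β-arrestin1/2 KO basal and 2542, 2650 and 2503 in β-arrestin1/2 KO iso libraries. The Gαs KO libraries held 235, 145 and 164 and, after isoproterenol, 210, 182 and 211. Its log2 folds were 2.45 (SE 0.17, adjusted p = 2.2e-07) and 3.20 (SE 0.17, adjusted p = 3.5e-09) in the responding lines. SIK1 has a near-identical copy in this annotation, between which reads may be divided. CREM, whose internal promoter makes the repressor ICER, rose by a log2 fold of 0.56 (SE 0.11, adjusted p = 0.012) in the β-arrestin1/2 KO line. In wildtype cells its libraries did not overlap either (804 to 912 and 1133 to 1277 normalized counts), with a log2 fold of 0.44 at an adjusted p of 0.11 by edgeR, and DESeq2 called it (adjusted p = 0.0096). For the β-arrestin1/2 KO response SIK1 alone was called in 4 of the 6 cases of a single library of that response being omitted, and under the stricter thresholds.

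Among known NR4A target genes, TXNIP and CCND1 were called. Of 36 listed genes, which include genes of steroid-making, dopamine and muscle cells, 19 passed the filter. By edgeR 1 of the 19 was called in wildtype cells and 2 in the β-arrestin1/2 KO line. Over all genes tested, 0.412% were called higher and 0.0515% lower in wildtype cells, and 0.953% and 0.174% in the β-arrestin1/2 KO line. At an unadjusted p under 0.05 by edgeR the list had 4 and 2 in these lines, beside 1629 and 1288 of all 15530 genes. TXNIP, an inhibitor of thioredoxin that also limits glucose uptake, fell in both responding lines. It held 545, 612 and 532 normalized counts in wildtype basal and 266, 288 and 265 in wildtype iso libraries, a log2 fold of -1.04 (SE 0.10, adjusted p = 1.4e-05). Its β-arrestin1/2 KO libraries held 1017, 1110 and 921 in the basal state and 314, 383 and 351 after isoproterenol, a log2 fold of -1.54 (SE 0.10, adjusted p = 4.1e-08). Its Gαs KO libraries held 1585, 1763 and 1693 and, after isoproterenol, 1741, 1563 and 1720, where the groups overlapped and edgeR and DESeq2 each called 0 of the list, with 1 at an unadjusted p under 0.05. CCND1, the gene of cyclin D1, rose in the β-arrestin1/2 KO line by a log2 fold of 0.37 (SE 0.06, adjusted p = 0.0036). Its wildtype libraries did not overlap either (2300 to 2537 and 2801 to 2971 normalized counts). There edgeR did not call it with all libraries and TMM scaling, whereas it was called by DESeq2 (log2 fold 0.26, adjusted p = 0.00038), with GC and length offsets (0.30, adjusted p = 0.0037 by edgeR) and without wildtype basal replicate 1 or 3. The median of the list was -0.08 in wildtype and -0.06 in the β-arrestin1/2 KO line.

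The other immediate-early genes gave the most calls of the 5 lists. Of 42 genes 40 passed the filter, of which 18 rose in wildtype cells and 27 in the β-arrestin1/2 KO line, and 0 fell in either line. In the Gαs KO line edgeR called 0 of the list. There 6 of the 40 had an unadjusted p under 0.05 by edgeR, beside 164 of all 15530 genes. DESeq2 called 1 in that line, EGR1, named after its value was seen. Over all genes tested, 0.412% were called higher in wildtype cells and 0.953% in the β-arrestin1/2 KO line. The median log2 folds of the list were 0.63, 1.17 and 0.04 in the wildtype line, the β-arrestin1/2 KO line and the Gαs KO line. In wildtype cells the 8 largest rises were those of FOS (3.25), JUNB (2.78), DUSP1 (2.52), SIK1 (2.45), BTG2 (2.07), FOSB (2.05), EGR3 (1.93) and CCN2 (1.59), all as fitted log2 folds. FOS, FOSB and JUNB encode parts of the AP-1 factor, DUSP1 a phosphatase of MAP kinases and BTG2 an antiproliferative factor. In the β-arrestin1/2 KO line the 8 largest were FOS (3.56), DUSP1 (3.56), SIK1 (3.20), JUNB (2.77), EGR2 (2.58), BTG2 (2.45), DUSP2 (2.36) and GEM (2.31). With a fit of the wildtype libraries alone, 7 of the list were called in wildtype cells, and 25 were called without wildtype basal replicate 1. DESeq2 called 23 in wildtype cells and 29 in the β-arrestin1/2 KO line, and edgeR with GC and length offsets called 24 and 33. The counts of the 2 lines were not tested against each other. FOS and DUSP1 were, in the β-arrestin1/2 KO line, the members of this list with a log2 fold above that of NR4A1, 3.37.

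FOS had the largest log2 fold of this list in both responding lines. It held 201, 161 and 172 normalized counts in wildtype basal and 1598, 1687 and 1813 in wildtype iso libraries. Its β-arrestin1/2 KO libraries held 155, 232 and 257 in the basal state, which overlapped the wildtype basal libraries, and 2501, 2530 and 2583 after isoproterenol. Gαs KO libraries held 51.4, 57.2 and 31.0 in the basal state and 68.5, 64.6 and 62.5 after isoproterenol, without overlap. The log2 fold of FOS in that line was 0.50 (SE 0.21) and was not called. Basal Gαs KO libraries therefore lay below those of both other lines for FOS as they did for NR4A1 and NR4A2.

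The difference of responses was tested for the list genes. DUSP1 (log2 difference 1.04, SE 0.15, adjusted p = 0.0057) and ATF3 (0.98, SE 0.11, adjusted p = 0.00089) rose more in β-arrestin1/2 KO than in wildtype cells, beside 0.167% of all genes called in this comparison in either direction. Without wildtype basal replicate 1 the count over all lists was 17, of which 10 were higher, and without replicate 2 of that group it was 5. In the Gαs KO line 11 immediate-early genes had a lower log2 fold than in wildtype cells, SIK1 being also on the list of upstream regulators, and TXNIP had a higher log2 fold (difference 1.04, SE 0.14), beside 0.161% of all genes. The largest differences were those of FOS (-2.76, SE 0.27), JUNB (-2.73, SE 0.19) and DUSP1 (-2.52, SE 0.16). The NR4A1, NR4A2 and NR4A3 differences in the same fit were -1.71, -3.42 and -2.83, given without a test. Each comparison with wildtype cells uses the same wildtype libraries.

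DUSP1 encodes the phosphatase MKP-1. It held 1916, 1334 and 1636 normalized counts in wildtype basal and 8162, 9337 and 10445 in wildtype iso libraries. In the β-arrestin1/2 KO line it went from 2019, 2111 and 2238 to 23803, 25788 and 25317, so the basal libraries of both lines lay close together, without overlap, and the stimulated ones far apart. For NR4A1 and NR4A3 the wider gap between these lines was in the basal state.

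The genes whose log2 levels followed each NR4A gene most closely over the 18 libraries were sought among all genes that passed the filter, as a description. NR4A1 was followed by RGS16 (Pearson r = 0.979), GABARAPL1 (0.975), NR4A3 (0.970), INHBA (0.962) and TRIB1 (0.957). NR4A2 was followed by GEM (0.974), FOS (0.973), SIK1 (0.972), ZNF331 (0.972) and RGS2 (0.970), and NR4A3 by NR4A1 (0.970), NR4A2 (0.970), TRIB1 (0.954), FOS (0.952) and RGS2 (0.952). The r between NR4A1 and NR4A2 was 0.927. RGS2 and RGS16 encode inhibitors of G protein signalling and GEM a small GTPase. The libraries share their lines and treatments, so they are not independent points.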

How the data were processed

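Per the labels, polyadenylated RNA was selected, and per the study's methods it was sequenced as paired reads of 150 bp. The authors deposited expected counts per transcript, estimated per the submitters' processing notes with Salmon 1.7.0, with no further normalization. The transcript index was not given in the sources used here. Identifiers were matched to GENCODE 29 on GRCh38 (161838 of 184844 transcripts, 92.9% to 93.8% of each library's counts) and summed per gene, and the sums were rounded. The 0.05 thresholds are Benjamini-Hochberg adjusted p-values over the 15530 genes kept by filterByExpr. One fit over 18 libraries used edgeR 4.0.16 (R 4.3.3; TMM scaling, quasi-likelihood test, 6 group coefficients). DESeq2 1.42.0 was an alternative. The script was tested on simulated data. Levels per length used annotated transcript lengths. Likeness used log2(CPM + 0.5). Python 3.11.15 served for summaries. Planned exact tests of transcript shares are not reported, since transcript use was among the values that chose the genes.

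The members and lists were chosen with earlier results of these data known. Named genes were the 3 members, the 5 genes most like each, and list genes called, at most 8 per list and comparison, by absolute log2 fold. RPS6KA1 and SLC2A4 had no matched transcript and were not analysed here, and the level of 1 further gene is not reported here. The libraries are labelled as biological replicates. No identical libraries were found, and 0 columns were left unused. Alternatives covered scaling, filters, test, samples, thresholds, GC and length offsets, a replicate block and each library left out. P-values measure the spread between libraries, and intervals were not drawn for counts.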

Additional observations from a re-analysis of the deposited data

Results flagged for a closer look

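Several list genes differed between lines in their response to isoproterenol by edgeR's test of the difference itself. Relative to wildtype cells, the log2 response in β-arrestin1/2 KO cells was higher by 1.04 for DUSP1 and by 0.983 for ATF3. Relative to wildtype cells, the log2 response in Gαs KO cells differed by -2.76 for FOS, -2.73 for JUNB, -2.52 for DUSP1, -2.3 for SIK1 and -2.08 for BTG2. It also differed by -1.92 for FOSB, -1.46 for RGS2, -1.32 for GEM, -1.1 for FOSL2, -1.01 for SGK1 and -0.765 for ATF3, and by 1.04 for TXNIP.

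The fitted log2 fold of NR4A3 was negative in the Gαs KO line and positive in the 2 responding lines. Each of its 3 stimulated Gαs KO libraries lay below the mean of the basal ones (fitted log2 fold -0.51, SE 0.31). Each stimulated library of wildtype and of β-arrestin1/2 KO cells lay above its basal mean. This difference was not tested, since the gene was chosen on these values. The Gαs KO groups overlap at few counts, so no fall is shown in that line.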

How the results depend on the processing

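Over 35 results and 566 values under alternatives, 526 kept their side of the threshold or moved by less than the spread between replicates, and 0 called values reversed. The summed NR4A log2 folds kept within that spread under every other scaling, filter, tool and left-out library. With the leading transcript alone they were -0.12 for NR4A1 in the Gαs KO line, 3.79 and 5.01 for NR4A2 in the wildtype and β-arrestin1/2 KO lines, and 2.66 and -1.78 for NR4A3 in the wildtype and Gαs KO lines. List calls changed as follows, from 0, 0, 1, 1 and 18 in wildtype cells for other nuclear receptors, partners, upstream regulators, targets and immediate-early genes. DESeq2 gave 1 partner, 2 regulators and 2 targets, GC and length offsets 1 nuclear receptor and 2 targets, upper-quartile scaling and a minimum of 10 counts 1 partner each, and a fit of only the groups compared 0 targets and 7 immediate-early genes. In the β-arrestin1/2 KO line only the groups compared gave 3 nuclear receptors, 1 partner and 5 regulators, an adjusted p under 0.01 gave 1 regulator, and a log2 fold of at least 1 gave 1 regulator and 1 target. DESeq2 called 1 immediate-early gene in the Gαs KO line. The count of list genes whose response in the β-arrestin1/2 KO line differed from wildtype, 2, became 8 with DESeq2, 8 with the offsets, 1 with only the groups compared and 1 with a log2 difference of at least 1. The NR4A2-201 share differed by 9.48 points after isoproterenol over all lines and by 15.7 points over the lines other than Gαs KO. Why these changed was not tested.

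With 1 library left out, wildtype counts ranged from 0 to 1 for nuclear receptors and partners and from 1 to 2 for targets. Immediate-early counts ranged from 15 to 25 in wildtype cells and from 22 to 24 in the β-arrestin1/2 KO line. The β-arrestin1/2 KO regulators ranged from 1 to 2, and the β-arrestin1/2 KO difference from 2 to 17. Both the 25 and the 17 were found without wildtype basal replicate 1. The NR4A1-204 share in Gαs KO against wildtype cells ranged from -23.9 to -14.9 points and the NR4A2-201 share from -14.9 to -6.93, described with no test. Replicate numbers did not pair the libraries (correlations of deviations from -0.099 to 0.077). With a replicate block the NR4A1 log2 fold in wildtype cells was 1.86, the NR4A2 fold 3.52 and the NR4A3 fold 2.31, and no call count moved by over 1.5 times. Depth limits NR4A3 in the Gαs KO line, whose libraries held 15.7 to 38.4 normalized counts.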
